A study of Capra hircus with 11 samples.

Results

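Rab GTPases are small membrane-bound switches that give each transport vesicle and organelle its identity. A Rab in its GTP-bound form recruits effectors (motors, tethers and sorting proteins), exchange factors switch it on, GTPase-activating proteins switch it off, and prenylation anchors it in the membrane. In polarised epithelium, including the milk-secreting epithelium of the mammary gland, separate sets of Rab proteins carry cargo to the apical and basolateral surfaces and through recycling endosomes. The genes described here were all rows whose symbol is RAB followed by digits and at most 1 capital letter, and 57 of the 16678 gene rows met that rule. Symbols with a longer ending, such as those of the Rab-like and Rab-interacting proteins, were not members. The members were placed in 7 role groups, covering ER-Golgi and Golgi traffic with 15 genes, secretion and surface delivery with 12, early endosomes with 9, recycling with 8, late endosomes and lysosomes with 6, cilium and other functions with 5, and lysosome-related organelles with 2.

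Goat (Capra hircus) cells were sequenced by the 10x Genomics droplet method, which counts unique molecular identifiers (UMIs) near the 3′ end of transcripts. The labels give BFRTV0d as untreated ear fibroblasts (3 samples), BFRTV4d as the same kind of cell after 4 days in the BFRTV small-molecule induction medium (3 samples), and BFRTV8d as cells after 8 days of it (2 samples, although the series' design text speaks of 3 replicates). CiMECs (1 sample) are the day-8 cells carried on by passaging in mammary epithelial cell medium on Matrigel, a basement membrane extract, and GMECs (2 samples) are mammary epithelial cells of natural origin. No transgene or age is named, and no source states whether samples of a group are separate cultures or lanes of 1 library. Each group was deposited as 1 table in which barcodes carry no sample, so each group was treated as 1 library, no test was possible, and every difference below compares these libraries.

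The tables held 5188 to 10670 barcodes and between 97203521 and 117500853 UMIs, and any 2 tables shared 37 to 147 barcode sequences. They fall into 2 sets. The 3 BFRTV tables hold no row for a ribosomal protein gene and no barcode under 1951 UMIs, whereas CiMECs and GMECs list 74 ribosomal protein genes, which took 25.6% and 35.0% of their UMIs, and hold barcodes down to 500 UMIs. Levels are counts per 1000000 UMIs (CPM) over totals that leave out ribosomal protein genes, and CiMECs against BFRTV8d or GMECs against BFRTV0d crosses the 2 sets. In those comparisons the group cannot be told apart from the way its table was made. A gene was compared where it had at least 10 CPM on 1 side, and called where the CPM ratio was at least 2-fold. Intervals in brackets are exact 95% intervals of that ratio and cover counting error only.

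The labelled cell types were checked with marker genes. A list of 14 mesenchymal genes, mostly collagens, summed to 12960 CPM in BFRTV0d, 3471 at day 4, 422 at day 8, 18.4 in CiMECs and 4.50 in GMECs. The epithelial list, of which 14 genes were listed, summed to 1185, 5884, 13580, 8100 and 13520 CPM in the same order. By the share of these marker UMIs in each barcode, 5.42% of BFRTV0d barcodes were epithelial-gated and 92.6% mesenchymal-gated, against 46.7% and 44.7% in BFRTV4d and 95.3% and 3.01% in BFRTV8d. In CiMECs 97.3% and in GMECs 99.1% of barcodes were epithelial-gated. Cell makeup therefore moved together with induction day, and table sums mix it with levels within cells. Of the markers of other cells, the endothelial list also moved with induction day and summed to 171 CPM at day 0, 47.1 at day 4 and 15.3 at day 8, with 25.9 for the passaged cells and 21.2 for GMECs. EGFL7 led it in every table, at 136 CPM in BFRTV0d, where ERG stood at 31.5, PECAM1 at 1.92 and VWF at 1.10 CPM, while CDH5, TIE1 and CLDN5 were listed in no table. The immune list summed to 27.4 to 64.5 CPM, led by CD14, with LAPTM5 at 5.13 CPM in BFRTV0d and PTPRC listed in no table. The part of these cells in the differences below was not tested.

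Of the 57 Rab genes, 49 were listed in all 5 tables and 45 reached 10 CPM in at least 1. The 57 together took 3150 CPM at day 0, 2197 at day 4, 2782 at day 8, 2628 in CiMECs and 2841 in GMECs. The sum was thus 1.43-fold lower at day 4 than at day 0, and this direction held with TMM factors, where it was 1.23-fold lower. At day 8 it was 1.13-fold below day 0 and 1.02-fold below with TMM factors. For CiMECs and GMECs no direction can be given, since the ratio of CiMECs to BFRTV8d was 0.945 by totals and 1.57 with TMM factors, that of CiMECs to GMECs was 0.925 and 1.31, and that of GMECs to BFRTV0d was 0.902 and 1.17.

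**Figure D1:**
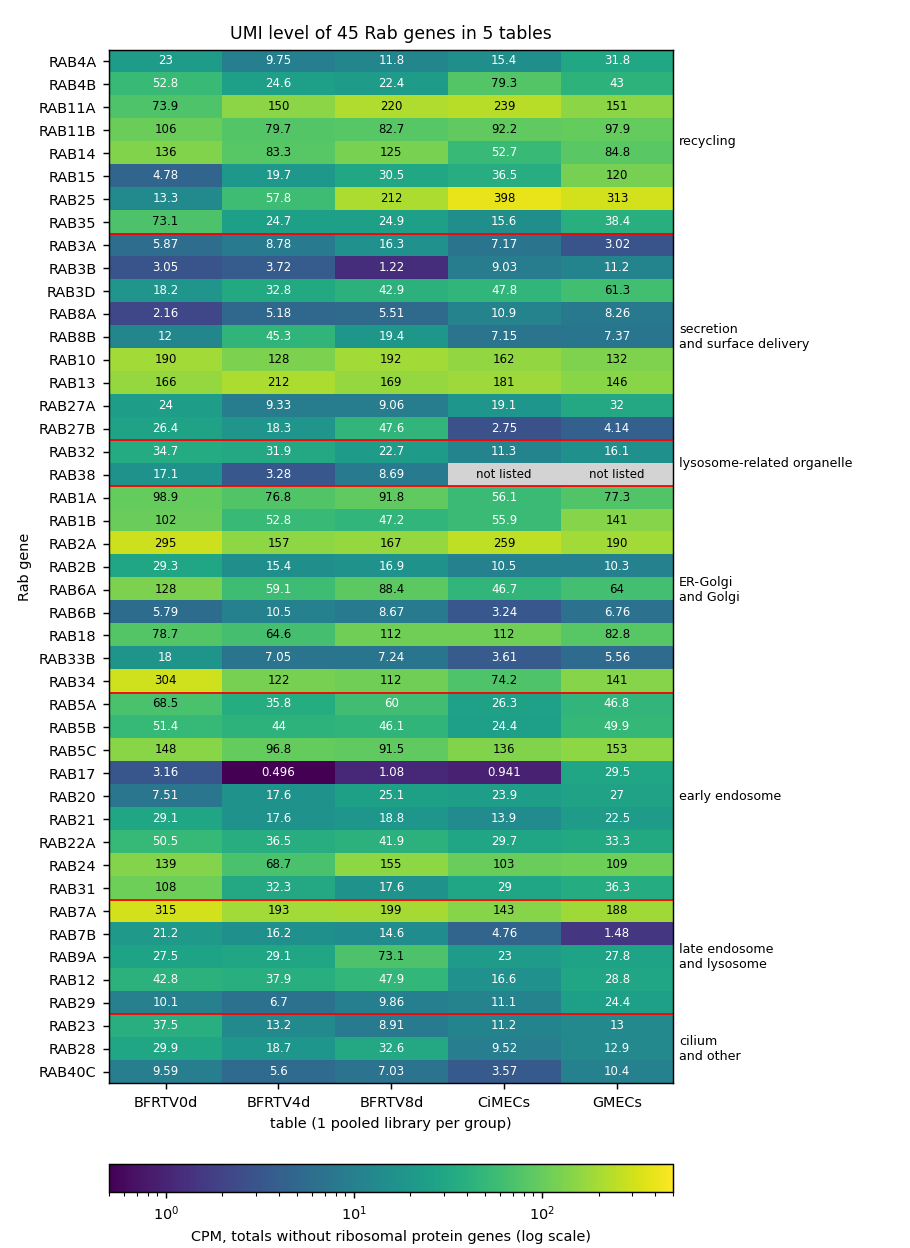
Heat map of the level of the 45 Rab genes that reached 10 CPM in a table (rows, grouped by role between red lines) in the 5 tables (columns). Colour is CPM on a log scale and each cell prints its CPM. RAB25 goes from 13.3 CPM in BFRTV0d to 398 in CiMECs, RAB17 is at 29.5 in GMECs and at most 3.16 elsewhere, and RAB38 is not listed in CiMECs or GMECs.

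The 12 genes that stayed under 10 CPM in every table were RAB3C, RAB9B, RAB19, RAB26, RAB30, RAB36, RAB37, RAB39A, RAB39B, RAB40B, RAB42 and RAB43. None of them passed 5.63 CPM, the level reached by RAB26, a Rab of secretory granules. RAB30 reached 4.92, RAB40B 3.84 and RAB3C 0.0830 CPM. The 12 genes that reached 10 CPM but were never called in the 6 comparisons between tables included the housekeeping Rabs of several steps. RAB7A, which drives late endosome to lysosome traffic, stood at 143 to 315 CPM, RAB2A of the ER-Golgi route at 157 to 295 CPM, RAB10 of basolateral delivery at 128 to 192 CPM, and RAB13 of tight junctions at 146 to 212 CPM. RAB5C, RAB11B, RAB1A and RAB18 stood between 56.1 and 153 CPM, and RAB18 is known from lipid droplets. The others were RAB22A, RAB21, RAB6B and RAB8A. Of the 12, 10 were never 2-fold apart, whereas RAB8A was up to 3.82-fold and RAB6B up to 2.68-fold apart in comparisons where both sides lay under 10 CPM. Levels of different genes are not per length and depend on how much of each 3′ end the annotation holds, so they are not ranked against each other.

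The first question of the design is how the cells differ along induction. In BFRTV4d against BFRTV0d, 40 Rab genes were compared, of which 5 were called higher and 11 lower, that is 12.5% and 27.5%, against 13.4% and 25.4% of all 8949 genes compared. In BFRTV8d against BFRTV4d, 4 of 37 were higher and 1 was lower, against 10.7% and 7.1% of all genes. In BFRTV8d against BFRTV0d, 7 of 40 were higher and 8 lower, against 19.7% and 28.0% of all genes. The counts of Rab genes therefore stood near the background in these comparisons, and what follows concerns which genes moved. The median log2 ratio of the Rab genes was -0.60, 0.20 and -0.23 in the 3 comparisons, beside -0.39, 0.12 and -0.29 over all genes. With TMM factors the median of all genes was shifted by 0.22 for day 4 and 0.15 for day 8 against day 0, and the higher genes made up 46.1% rather than 34.4% of all calls at day 4.

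**Figure D2:**
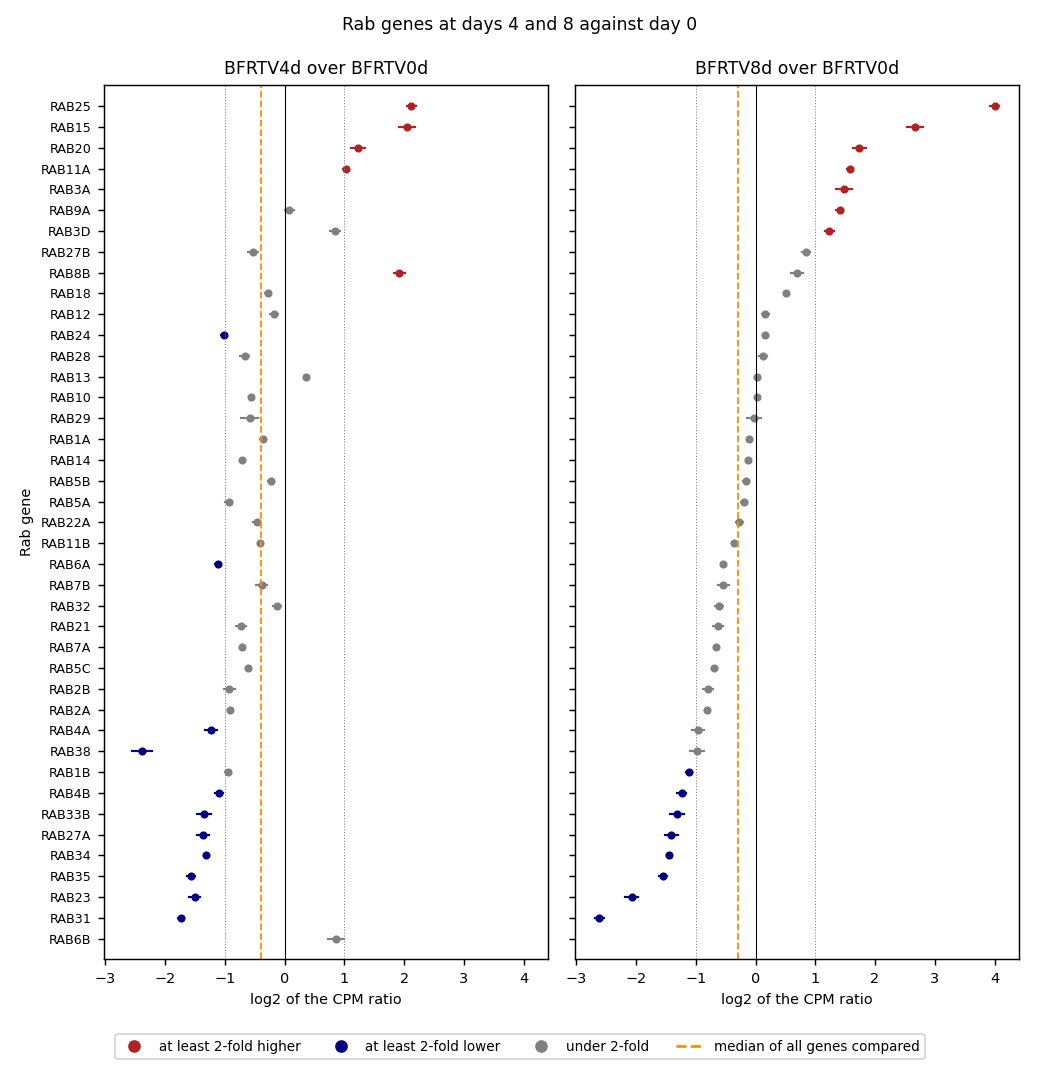
Log2 CPM ratio of each compared Rab gene in BFRTV4d over BFRTV0d (left) and BFRTV8d over BFRTV0d (right), ordered by the right panel. Points are ratios, bars their exact 95% counting intervals, dotted lines mark 2-fold, and the dashed line is the median of all genes compared (-0.39 and -0.29). RAB25 has the highest ratio in both panels, and RAB31 the lowest at day 8.

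The recycling Rabs did not go one way. RAB25, a RAB11 relative found mainly in epithelia where it works in apical recycling, stood at 13.3 CPM at day 0, 57.8 at day 4, 212 at day 8, 398 in CiMECs and 313 in GMECs. It was higher at each induction step, by 4.35-fold [4.12 to 4.60] from day 0 to 4 and 3.67-fold [3.57 to 3.78] from day 4 to 8. From day 0 to 8 it was 16.0-fold [15.2 to 16.8] higher, or 4.29 log2 units above the median of all genes, and the ratio ran from 15.8 to 18.0 across 4 other scalings. RAB11A, the common recycling-endosome Rab, stood at 73.9, 150, 220, 239 and 151 CPM in the same order. RAB11A was 2.98-fold [2.90 to 3.05] higher at day 8 than at day 0, while its close relative RAB11B stood between 79.7 and 106 CPM in all tables. RAB15, which acts between early and recycling endosomes, stood at 4.78, 19.7, 30.5, 36.5 and 120 CPM. RAB15 was 6.37-fold [5.82 to 6.98] higher at day 8 than at day 0, and GMECs had the highest level.

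Other recycling Rabs were lower along induction. RAB35, which returns cargo to the plasma membrane, stood at 73.1, 24.7, 24.9, 15.6 and 38.4 CPM and was 2.94-fold [2.81 to 3.07] lower at day 8. RAB4B, of the fast recycling route, stood at 52.8, 24.6, 22.4, 79.3 and 43.0 CPM and was 2.36-fold [2.25 to 2.48] lower at day 8. RAB4A stood at 23.0, 9.75, 11.8, 15.4 and 31.8 CPM. RAB4A was 2.36-fold [2.19 to 2.53] lower at day 4, a call that is lost with median-of-ratios factors, where it was 2.00-fold lower. RAB14, which links the Golgi with endosomes, stood at 136, 83.3, 125, 52.7 and 84.8 CPM with no call along induction. The 8 recycling genes together had 484, 449, 730, 928 and 881 CPM, so their sum was 1.51-fold higher at day 8 than at day 0 and 1.68-fold with TMM factors. RAB25 and RAB11A carried this sum, since 3 of the 8 were called higher and 2 lower and the median log2 ratio was -0.24, beside -0.29 over all genes.

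The ratio of 2 genes within a table does not depend on how the table is scaled. RAB11A had 0.696 UMIs per RAB11B UMI [0.677 to 0.715] at day 0, 1.88 at day 4, 2.66 at day 8, 2.59 in CiMECs and 1.54 in GMECs. RAB25 had 0.180 UMIs per RAB11A UMI [0.170 to 0.190] in BFRTV0d, then 0.386, 0.966, 1.66 and 2.07. Within the RAB11 family the balance of whole tables thus moved towards RAB25 along induction and stood furthest there in GMECs. Such a ratio still mixes cell makeup with levels within cells. Epithelial-gated cells held 1248 RAB25 and 1659 RAB11A UMIs in BFRTV0d, 5342 and 6207 in BFRTV4d, and 21653 and 21286 in BFRTV8d. The balance thus moved less within them, and the part of cell makeup was not tested. RAB31 had 2.13, 0.884, 0.420, 0.976 and 1.09 UMIs per UMI of RAB22A, its close relative.

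**Figure D3:**
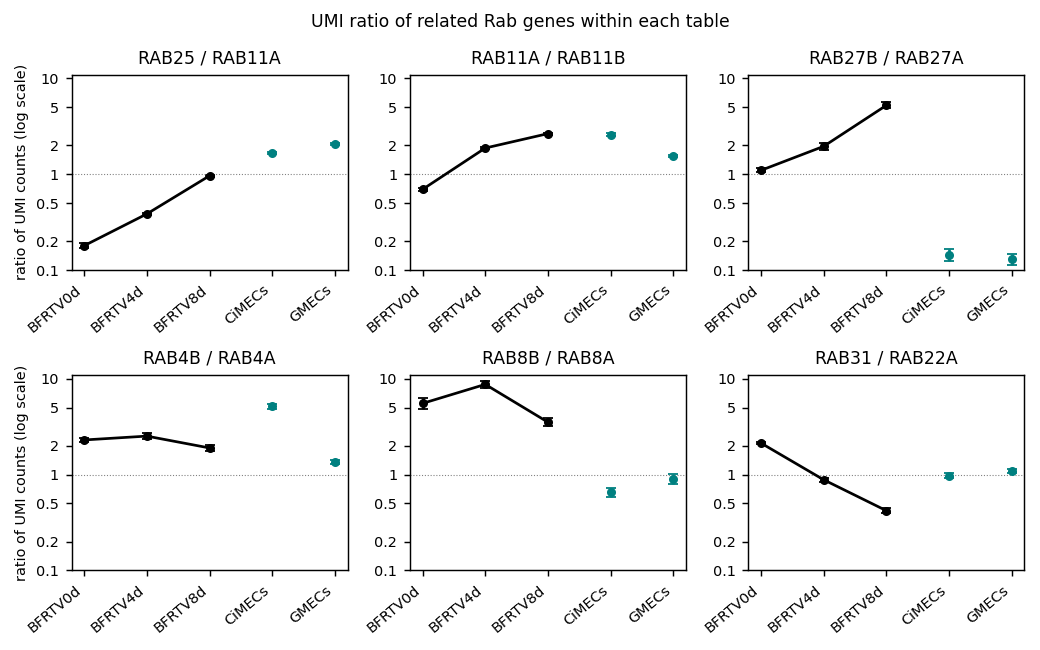
Ratio of UMI counts of 6 pairs of Rab genes within each table, on a log scale with exact 95% counting intervals. Black points joined by lines are the BFRTV tables, teal points are CiMECs and GMECs. The RAB27B to RAB27A ratio is 1.10 at day 0 and 5.25 at day 8, with 0.144 in CiMECs and 0.130 in GMECs.

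Among Rabs of secretion and surface delivery, 2 were higher and 1 lower of 7 compared at day 8 against day 0, beside 19.7% and 28.0% of all genes. RAB3D, a Rab of secretory granules in exocrine cells, stood at 18.2, 32.8, 42.9, 47.8 and 61.3 CPM in the order used above. Between whole tables it was 2.35-fold [2.23 to 2.47] higher at day 8 and 3.36-fold [3.19 to 3.54] higher in GMECs than in BFRTV0d. RAB3A, best known from regulated exocytosis in neurons, stood at 5.87, 8.78, 16.3, 7.17 and 3.02 CPM and was 2.78-fold [2.54 to 3.04] higher at day 8. By the main scaling RAB3A therefore had its highest level at day 8, and RAB3D had its highest in GMECs. With TMM or median-of-ratios factors RAB3D was instead higher in CiMECs than in GMECs. RAB3B stood at 3.05, 3.72, 1.22, 9.03 and 11.2 CPM.

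Between whole tables RAB8B, a relative of the basolateral transport Rab RAB8A, was high at day 4 and lower again by day 8. It stood at 12.0 CPM at day 0, 45.3 at day 4, 19.4 at day 8, 7.15 in CiMECs and 7.37 in GMECs. It was 3.79-fold [3.57 to 4.02] higher at day 4 than at day 0, and 2.33-fold [2.22 to 2.46] lower at day 8 than at day 4. Only RAB8B was called lower between days 4 and 8 under the main scaling and with TMM factors.

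RAB27A and RAB27B both dock secretory granules and multivesicular bodies at the cell surface. RAB27A stood at 24.0, 9.33, 9.06, 19.1 and 32.0 CPM and was 2.65-fold [2.46 to 2.86] lower at day 8 than at day 0. RAB27B stood at 26.4, 18.3, 47.6, 2.75 and 4.14 CPM and was 2.60-fold [2.47 to 2.74] higher at day 8 than at day 4. There were 5.25 RAB27B UMIs per RAB27A UMI in BFRTV8d and 0.144 in CiMECs, so the balance of the pair differed between the day-8 cells and the passaged cells whatever the scaling. In GMECs the ratio was 0.130 [0.115 to 0.146], and its interval overlaps that of CiMECs [0.124 to 0.168].

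Among Rabs of early endosomes, RAB20, which acts on phagosomes and endosomes, stood at 7.51, 17.6, 25.1, 23.9 and 27.0 CPM and was 3.33-fold [3.09 to 3.60] higher at day 8 than at day 0. RAB31, which carries cargo from the Golgi to endosomes, stood at 108, 32.3, 17.6, 29.0 and 36.3 CPM. RAB31 was 6.12-fold [5.83 to 6.43] lower at day 8 and had the lowest ratio of the 40 Rab genes compared there. RAB24, linked to autophagy, stood at 139, 68.7, 155, 103 and 109 CPM. It was 2.02-fold lower at day 4, a call lost with TMM factors, and 2.25-fold [2.19 to 2.31] higher at day 8 than at day 4. RAB5A, of early endosome fusion, stood at 68.5, 35.8, 60.0, 26.3 and 46.8 CPM, and RAB5B at 51.4, 44.0, 46.1, 24.4 and 49.9 CPM. Neither was called along induction.

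Among Rabs of late endosomes and lysosomes, RAB9A, which returns mannose 6-phosphate receptors to the Golgi, was flat to day 4 and then higher. It stood at 27.5, 29.1, 73.1, 23.0 and 27.8 CPM, and was 2.52-fold [2.41 to 2.62] higher at day 8 than at day 4. Only BFRTV8d stood above 30 CPM for RAB9A. RAB7B stood at 21.2, 16.2, 14.6, 4.76 and 1.48 CPM with its lowest level in GMECs. RAB12 stood at 42.8, 37.9, 47.9, 16.6 and 28.8 CPM, and RAB29, found at the trans-Golgi and on lysosomes, at 10.1, 6.70, 9.86, 11.1 and 24.4 CPM. In the RefSeq annotation of the goat assembly ARS1.2, 13 of the 57 genes came out as overlapping another gene. This count includes RAB36 and RAB39B, which came out with 68 and 44 genes, many the same, so their overlaps may not be real. RAB5A overlaps PP2D1, RAB7A overlaps HMCES, RAB9A overlaps TCEANC, RAB24 overlaps NSD1, RAB35 overlaps another protein-coding gene, and RAB6A and RAB33B overlap pseudogenes. Whether the counting used strand is not given, so reads of such pairs may not be told apart.

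Between whole tables no ER-Golgi or Golgi Rab was called higher along induction, and 3 of 8 compared were lower at day 8 than at day 0, beside 19.7% and 28.0% of all genes. RAB34, a Golgi and primary cilium Rab, stood at 304, 122, 112, 74.2 and 141 CPM and was 2.72-fold [2.67 to 2.78] lower at day 8. RAB33B, a Golgi Rab tied to autophagosome formation, stood at 18.0, 7.05, 7.24, 3.61 and 5.56 CPM and was 2.48-fold [2.28 to 2.70] lower. RAB1B, needed for ER to Golgi transport, stood at 102, 52.8, 47.2, 55.9 and 141 CPM and was 2.17-fold [2.10 to 2.24] lower, a call lost with TMM factors. The group's median log2 ratio was -0.81 over its 8 compared genes, beside -0.29 over all genes. RAB6A stood at 128, 59.1, 88.4, 46.7 and 64.0 CPM and RAB2B at 29.3, 15.4, 16.9, 10.5 and 10.3 CPM.

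RAB23, which restrains Hedgehog signalling at the cilium, stood at 37.5, 13.2, 8.91, 11.2 and 13.0 CPM and was 4.21-fold [3.92 to 4.53] lower at day 8 than at day 0. RAB28, also of the cilium, stood at 29.9, 18.7, 32.6, 9.52 and 12.9 CPM. RAB40C, part of a ubiquitin ligase, stood at 9.59, 5.60, 7.03, 3.57 and 10.4 CPM.

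RAB32 and RAB38 are known for delivering cargo to melanosomes and other lysosome-related organelles. RAB32 stood at 34.7, 31.9, 22.7, 11.3 and 16.1 CPM. RAB38 stood at 17.1 CPM in BFRTV0d, 3.28 in BFRTV4d and 8.69 in BFRTV8d, and was not listed in CiMECs or GMECs. Set at the fewest cells that the GMECs table lists for a gene, 6 counts, RAB38 was at least 206-fold lower in GMECs than in BFRTV0d, and at least 152-fold lower under the 4 other scalings. At day 4 it was 5.23-fold [4.67 to 5.87] lower than at day 0. In BFRTV0d, 56.0% of RAB38 UMIs came from the epithelial-gated cells, which held 9.55% of all UMIs, and its level was 101 CPM there and 6.78 CPM in the mesenchymal-gated cells. The 10 pigment cell markers summed to 7.13 CPM and 6.04 CPM in these 2 sets of cells. MITF led these markers in both sets, at 3.74 and 3.29 CPM, and stood at 3.345, 12.35 and 11.82 CPM in BFRTV0d, BFRTV4d and BFRTV8d. Of the 10, TYR, TYRP1, DCT and MLANA were not listed in BFRTV0d, where PMEL stood at 2.70 and SLC45A2 at 0.136 CPM.

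Levels were also set side by side within cells gated by their markers. The gates do not make pure sets, since markers of the other lineage changed within them too. Gated cells were those with at least 5 marker UMIs, of which at least 80% (epithelial-gated) or at most 20% (mesenchymal-gated) were epithelial. There were 578 epithelial-gated and 9884 mesenchymal-gated barcodes in BFRTV0d, 4762 and 4564 in BFRTV4d, and 9675 and 306 in BFRTV8d. The 578 barcodes had a median of 16540.5 UMIs, against 9892.5 in the mesenchymal-gated barcodes of the same table. Barcodes within 10 percentage points of either limit made up 2.77%, 7.75% and 3.18% of the tables. In BFRTV4d, where both sets are of similar size, 3 of 38 Rab genes were at least 2-fold higher in epithelial-gated cells and 2 lower, against 27.7% and 9.35% of all genes. With TMM factors 5 were lower, and higher genes made up 49.3% of all calls in place of 74.8%.

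RAB25 was concentrated in the epithelial-gated cells of every BFRTV table. It stood at 111 CPM there and 1.05 CPM in mesenchymal-gated cells in BFRTV0d, at 110 and 3.38 CPM in BFRTV4d, and at 223 and 18.4 CPM in BFRTV8d. The difference was 106-fold [86.7 to 130] in BFRTV0d, 32.5-fold [27.7 to 38.5] in BFRTV4d and 12.1-fold [9.53 to 15.6] in BFRTV8d. In BFRTV0d the 5.42% of barcodes that were epithelial-gated held 79.9% of RAB25 UMIs. The epithelial marker list itself summed to 75.9, 332 and 864 CPM in the mesenchymal-gated cells of the 3 days and thus moved together with RAB25 there, and its part in the result was not tested.

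RAB15 was also higher in the epithelial-gated cells, at 13.2 against 3.73 CPM in BFRTV0d, 35.4 against 3.16 in BFRTV4d and 31.9 against 1.38 in BFRTV8d. The 1.38 CPM rests on 5 UMIs, and the BFRTV8d ratio was 23.2-fold with a wide interval [9.94 to 71.6]. RAB20 was 6.48-fold [5.60 to 7.49] higher in epithelial-gated cells of BFRTV0d, at 28.9 against 4.46 CPM. It stood at 21.5 against 13.6 CPM in BFRTV4d and 25.4 against 16.5 CPM in BFRTV8d. RAB8B showed the opposite. It stood at 16.4 CPM in epithelial-gated and 74.8 CPM in mesenchymal-gated cells of BFRTV4d, a 4.57-fold [4.23 to 4.94] difference, and the 70.1% of its day-4 UMIs in mesenchymal-gated cells compare with 42.4% of all UMIs. In BFRTV8d RAB8B stood at 16.7 CPM in epithelial-gated and 70.2 CPM in mesenchymal-gated cells, each near its BFRTV4d level. The drop from day 4 to day 8 between whole tables was thus not seen at that size within either set. The part of cell makeup in that drop was not tested. RAB3B stood at 0.576 and 7.13 CPM in epithelial-gated and mesenchymal-gated cells of BFRTV4d.

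RAB11A was the higher in epithelial-gated cells at day 0 and the lower at day 4. It stood at 148 CPM in epithelial-gated and 64.4 CPM in mesenchymal-gated cells of BFRTV0d, then at 128 and 178 CPM in BFRTV4d, and at 219 and 236 CPM in BFRTV8d. The ratio was 2.30 [2.17 to 2.42] at day 0 and 0.717 [0.693 to 0.741] at day 4, or 2.54 and 0.520 with TMM factors.

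**Figure D4:**
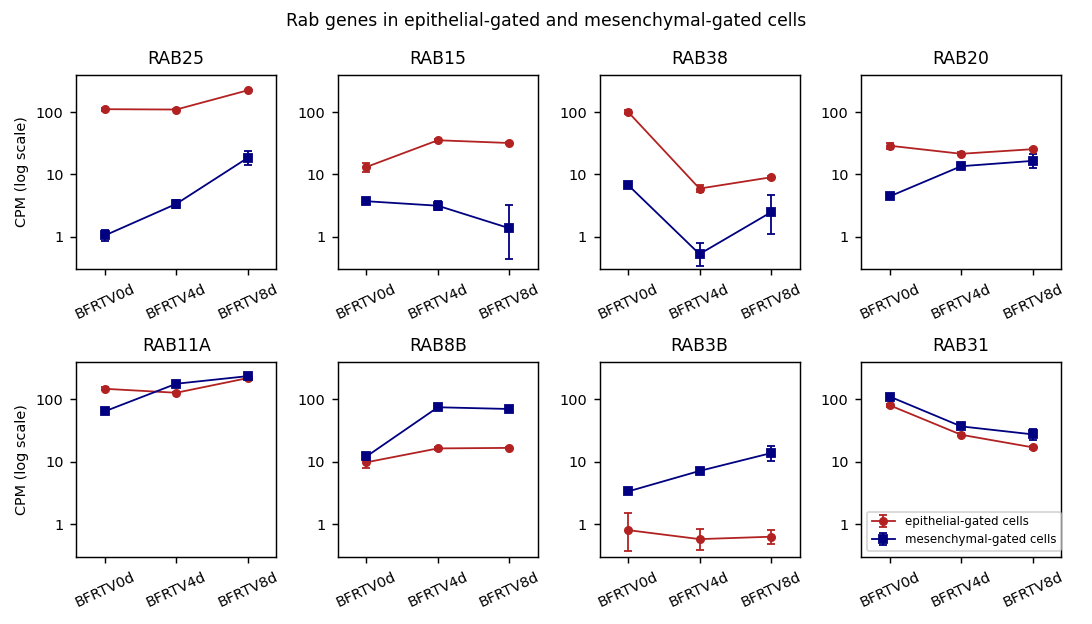
CPM on a log scale of 8 Rab genes in epithelial-gated cells (red circles) and mesenchymal-gated cells (blue squares) of the BFRTV tables, with exact 95% Poisson counting intervals. RAB25 and RAB15 stay above in epithelial-gated cells on each day, RAB8B reaches 74.8 CPM in mesenchymal-gated cells at day 4, and the RAB11A lines cross between days 0 and 4.

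Within epithelial-gated cells, BFRTV8d against BFRTV0d gave 4 higher and 5 lower of 39 Rab genes, against 19.4% and 17.7% of all genes. RAB25 was 2.01-fold [1.89 to 2.13] higher within these cells, as compared with 16.0-fold between the whole tables. RAB15 was 2.42-fold [2.05 to 2.88] higher. Without the 2% of barcodes with the most UMIs the log2 ratios of RAB25 and RAB15 were 0.88 and 0.92, and both calls were lost. RAB27B was 2.67-fold [2.32 to 3.08] higher within epithelial-gated cells, at 18.4 and 49.0 CPM. RAB3A was 6.54-fold [4.51 to 9.87] higher, at 2.50 and 16.3 CPM. RAB38 was 11.2-fold [10.2 to 12.2] lower, at 101 CPM at day 0 and 9.01 CPM at day 8. RAB31 was 4.71-fold [4.34 to 5.11] lower, at 80.3 and 17.1 CPM. The mesenchymal list itself summed to 676 CPM in the epithelial-gated cells of day 0 and 96.2 CPM in those of day 8, and its part in the RAB31 difference was not tested. The other genes called lower were RAB4B, RAB35 at 56.5 and 24.7 CPM, and RAB4A, whose call is lost with a stricter gate of 90% and 10%. Other genes called between the whole tables of days 0 and 8 were under 2-fold within these cells. RAB3D stood at 34.2 and 43.9 CPM, RAB9A at 42.1 and 75.45, RAB11A at 148 and 219, and RAB20 at 28.9 and 25.4 CPM. RAB1B stood at 87.5 and 47.9 CPM, RAB23 at 14.6 and 8.75, RAB27A at 13.6 and 9.08, and RAB34 at 171 and 112 CPM. Without the 2% of barcodes with the most UMIs, RAB9A was called higher and RAB1B lower at day 8 within these cells. A list of nerve and Schwann cell markers summed to 541 CPM in epithelial-gated cells of BFRTV0d, led by STMN2 at 466 CPM. It summed to 92.1 CPM in mesenchymal-gated cells of BFRTV0d, led by S100B at 76.7 CPM. In epithelial-gated cells of BFRTV8d the list summed to 88.6 CPM, led by STMN2 at 52.9 CPM, while CDH19 was listed in no table. Its part in these differences was not tested.

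Within mesenchymal-gated cells, BFRTV4d against BFRTV0d gave 4 higher and 13 lower of 36 Rab genes, against 10.5% and 39.7% of all genes. RAB8B was 6.14-fold [5.76 to 6.56] higher, from 12.2 to 74.8 CPM. RAB20 was 3.04-fold [2.69 to 3.44] higher, RAB11A 2.77-fold [2.68 to 2.86] and RAB6B 2.28-fold [2.04 to 2.55]. The higher levels of RAB11A and RAB8B at day 4 were therefore present in cells gated as mesenchymal. RAB35, at 75.5 and 21.1 CPM, was 3.58-fold [3.35 to 3.83] lower, RAB27A 3.41-fold and RAB31 3.00-fold. The median log2 ratio was -0.79 for the Rab genes and -0.73 for all genes, and with TMM factors the latter moved by 0.52 and only 4 of the 13 were still at least 2-fold lower. With these factors higher genes made up 46.7% of all calls in place of 20.9%.

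The next question is how the passaged cells differ from the day-8 cells. In CiMECs against BFRTV8d, 2 of 39 Rab genes were at least 2-fold higher and 10 lower, against 9.94% and 43.3% of all genes. TMM factors shift the median of all genes by 0.73 log2 units in this comparison, and higher genes made up 51.6% of all calls with them, 8.45% with totals over all listed genes and 18.7% in the main scaling. Of the 12 calls, 2 held under 4 other scalings. RAB27B was 17.3-fold [15.0 to 20.01] lower in CiMECs, with ratios from 9.92-fold to 23.2-fold lower under those scalings. RAB4B was 3.54-fold [3.38 to 3.72] higher, with 2.63-fold to 6.17-fold, and had 5.15 UMIs per RAB4A UMI in CiMECs against 1.90 in BFRTV8d. The other calls were RAB27A, 2.10-fold higher, and RAB28, RAB9A, RAB7B, RAB12, RAB8B, RAB14, RAB5A, RAB3A and RAB32, between 3.43-fold and 2.00-fold lower. With TMM factors 10 Rab genes were higher and 2 lower.

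The passaged induced cells were also set beside natural mammary epithelial cells, in the same table set. In CiMECs against GMECs, none of 38 Rab genes was at least 2-fold higher and 8 were lower, against 5.53% and 26.0% of all genes. With TMM factors, which shift the median of all genes by 0.51, 3 were higher and 3 lower, and higher genes made up 59.7% of all calls in place of 17.5%, or 32.1% with totals over all listed genes. RAB17, an epithelial Rab of transcytosis and apical recycling, was the largest of these differences, at 0.941 CPM in CiMECs and 29.5 CPM in GMECs. It was 31.4-fold [24.7 to 40.6] lower in CiMECs, and 21.7-fold to 31.5-fold lower under the 4 other scalings. In the fibroblast, day-4 and day-8 tables RAB17 stood at 3.16, 0.496 and 1.08 CPM, so no table but GMECs held it at 10 CPM. RAB15 was 3.30-fold [3.16 to 3.44] lower in CiMECs, at 36.5 against 120 CPM. RAB17 and RAB15 were the 2 calls that held under the 4 other scalings.

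The other 6 calls of CiMECs against GMECs did not all hold. RAB40C was 2.92-fold [2.53 to 3.38] lower and 2.02-fold lower with median-of-ratios factors, and stood under the 10 CPM minimum with totals over all listed genes. RAB1B was 2.52-fold [2.43 to 2.62] lower, at 55.9 against 141 CPM, and 1.74-fold lower with median-of-ratios factors. RAB1B had 0.995 UMIs per RAB1A UMI in CiMECs and 1.82 in GMECs. RAB35 was 2.46-fold, RAB29 2.20-fold, RAB4A 2.07-fold and RAB5B 2.04-fold lower, each under 2-fold with TMM factors. RAB4B, at 79.3 CPM in CiMECs and 43.0 in GMECs, was under 2-fold by the main scaling and was called higher in CiMECs with TMM factors, as were RAB11A and RAB3A. RAB25, at 398 and 313 CPM, was not called under any scaling run, so for it the induced and the natural cells stood within 2-fold.

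Natural mammary epithelial cells were last set against fibroblasts. In GMECs against BFRTV0d, 8 of 42 Rab genes were at least 2-fold higher and 11 lower, against 12.0% and 31.0% of all genes. Higher genes made up 27.9% of all calls, 47.6% with TMM factors and 10.1% with totals over all listed genes, and TMM factors shift the median of all genes by 0.38. Under the 4 other scalings 5 of the higher and 7 of the lower calls held. The higher genes that held were RAB15, RAB25, RAB17, RAB20 and RAB3D. RAB15 was 25.2-fold [23.1 to 27.5] higher, RAB25 23.5-fold [22.4 to 24.8], RAB17 9.36-fold [8.38 to 10.5] and RAB20 3.60-fold [3.32 to 3.90]. RAB25, RAB15, RAB20, RAB3D and RAB11A were called higher both here and in BFRTV8d, which share the BFRTV0d table as their base. The RAB11A call in GMECs was lost with totals over all listed genes, where it was 1.33-fold higher. The lower genes that held were RAB38, RAB7B at 14.3-fold [11.8 to 17.5], RAB27B at 6.38-fold [5.66 to 7.21], RAB33B, RAB31, RAB23 and RAB2B. RAB27B was thus 6.38-fold lower in GMECs than in fibroblasts, whereas BFRTV8d had 1.80-fold [1.72 to 1.88] more of it than BFRTV0d.

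The regulators and effectors of Rab proteins were taken from 4 lists. In BFRTV8d against BFRTV0d, 3 of 23 exchange factors compared were at least 2-fold higher and 7 lower, 3 of 28 GTPase-activating proteins higher and 7 lower, and 8 of 45 effectors higher and 13 lower, beside the 19.7% and 28.0% of all genes. RAB3IP (Rabin8), an exchange factor of RAB8, was 11.7-fold [10.4 to 13.2] higher, from 2.49 to 29.1 CPM. Its relative RAB3IL1 was 12.6-fold [10.4 to 15.6] lower, from 12.7 to 1.01 CPM. The 2 related exchange factors thus differed in opposite directions. DENND4C was 3.76-fold and DENND6A 2.33-fold higher, and RIN3 and RIN1, of the RAB5 exchange factors, were 8.66-fold and 8.39-fold lower. DENND6A and RIN3 stood under the 10 CPM minimum with TMM factors, as did RAB3IL1 with median-of-ratios factors.

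Among effectors, SYTL1, which tethers RAB27 granules to the plasma membrane, was 16.3-fold [14.6 to 18.3] higher at day 8, from 2.78 to 45.3 CPM. MYO5B, the motor that carries RAB11 and RAB25 recycling vesicles, was 13.6-fold [11.6 to 16.0] higher, from 1.43 to 19.4 CPM, and the exocyst subunit EXOC6B 4.82-fold [4.51 to 5.15]. Between whole tables RAB25, RAB11A and MYO5B were thus each higher at day 8. The part of cell makeup in these differences was not tested. RPH3AL, an effector of RAB3 and RAB27, was 29.5-fold [23.0 to 38.4] lower, from 18.3 to 0.619 CPM. MICAL1 was 9.86-fold and RILPL1 4.07-fold lower.

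Among GTPase-activating proteins, TBC1D30, which acts on RAB8, was 8.90-fold [7.78 to 10.2] higher at day 8, SGSM3 4.39-fold and GRTP1 2.04-fold. TBC1D20, which acts on RAB1, was 6.16-fold [5.80 to 6.55] lower, from 72.7 to 11.8 CPM, TBC1D22A 3.04-fold and RABGAP1L 2.75-fold. TBC1D22A stood under the minimum with TMM factors. Of 10 prenylation and Rab recycling factors compared, RABGGTB, a subunit of the enzyme that prenylates Rab proteins, was 2.86-fold [2.79 to 2.93] higher. RABIF was 3.71-fold [3.56 to 3.86] lower and RABAC1, a Rab acceptor, 2.05-fold [2.04 to 2.07] lower, at 1831 and 893 CPM, a call lost with TMM factors, where it was 1.85-fold lower. YIPF4 was 1.03-fold higher, under the threshold.

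In CiMECs against GMECs, 0 of 14 exchange factors were higher and 7 lower, 0 of 19 GTPase-activating proteins higher and 4 lower, 2 of 39 effectors higher and 15 lower, and 0 of 11 prenylation and recycling factors passed 2-fold, beside 5.53% and 26.0% of all genes. With TMM factors these counts were 0 higher and 1 lower for exchange factors, 0 and 1 for GTPase-activating proteins, 5 and 2 for effectors, and 3 and 0 for prenylation and recycling factors, so the counts depend on the scaling. SYTL3, an effector of RAB27A, was 8.37-fold [7.69 to 9.12] higher in CiMECs, at 69.3 against 8.29 CPM. OPTN, an effector of RAB8, was 2.43-fold [2.34 to 2.52] higher, at 145 against 59.5 CPM. These were the effectors called higher in the passaged induced cells under the main scaling, and both calls held under the 4 other scalings. TBC1D24 was 5.00-fold [4.28 to 5.88] lower, RPH3AL 4.63-fold [3.91 to 5.51] and MICALL2, an effector of RAB13 at junctions, 4.40-fold [3.95 to 4.91] lower. The MICALL2 call held under the 4 other scalings, while TBC1D24 and RPH3AL stood under the 10 CPM minimum with totals over all listed genes. RGP1 and DENND4C were 2.95-fold and 2.47-fold lower among exchange factors, and the RGP1 call held under the 4 other scalings. TBC1D2 was 2.73-fold, TBC1D15 2.12-fold and PLEKHM1 2.65-fold lower. With TMM factors DENND4C was 1.74-fold, TBC1D2 1.92-fold, TBC1D15 1.49-fold and PLEKHM1 1.87-fold lower, so these 4 calls were lost. RABEPK, TBC1D7, YIPF1, RABGGTA and RABAC1 had ratios of 1.14 to 1.53, and RABGGTB, YIPF6 and RABIF were 1.99-fold, 1.75-fold and 1.52-fold lower, all under the threshold by the main scaling. With TMM factors YIPF1, RABGGTA, RABEPK and RABAC1 were called higher in CiMECs, at 2.17-fold, 2.17-fold, 2.12-fold and 2.06-fold.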

How the data were processed

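The authors deposited 1 table per group of UMI counts per gene and barcode, as whole numbers that had not been normalized. Cell Ranger and FastQC 0.10.1 are named in the submitters' processing notes, and the kit was the Single Cell 3′ kit, version 2. For the Cell Ranger version, genome build, annotation and filters nothing is given in the sources used. No coordinates or sequences are printed. UMIs of each gene were added up over a table's barcodes and divided by totals without ribosomal protein genes. No doublets were removed. The exact 95% interval of a CPM ratio was conditional on the sum of both counts (binomial, scipy 1.17.1), checked on simulated data. A listed gene at 0 was set at 3 counts and an unlisted gene at the fewest cells its table lists, 11 or 6. Gates used the epithelial and mesenchymal lists only. Alternatives were TMM factors (edgeR 4.0.16) and median-of-ratios size factors (DESeq2 1.42.0) over the 12729 genes listed in all tables, used as scalings without a test, other totals, other minimum levels, and other choices of barcodes and gates. The scalings were run for the regulator lists after seeing the data. The members, gene lists and comparisons were chosen with earlier results of these data known. Rab genes with at least 10 CPM and a 2-fold difference in 1 of the 6 table comparisons were described in every table, up to 8 others were named by level, and from each regulator list up to 3 genes at either end of the folds in BFRTV8d against BFRTV0d and CiMECs against GMECs were named. Reads shared between near-identical copies could not be checked. All 57 symbols occur in the RefSeq table of ARS1.2.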

Additional observations from a re-analysis of the deposited data

Results flagged for a closer look

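The ratio of epithelial-gated to mesenchymal-gated cells lay on opposite sides of 1 in BFRTV0d and BFRTV4d for RAB11A and RAB32, with at least 2-fold on 1 of the days and at least 10 CPM in 1 of the 2 sets of cells on both days. Genes under that level were not considered. With 1 library per day the difference between days was not tested. For RAB11A the ratio was 2.30 in BFRTV0d and 0.717 in BFRTV4d. For RAB32 it was 0.386 [0.328 to 0.452] in BFRTV0d, at 14.3 against 37.2 CPM, and 1.43 [1.33 to 1.55] in BFRTV4d, at 36.4 against 25.4 CPM. With TMM factors the RAB32 ratio at day 4 was 1.04.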

How the results depend on the processing

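No paired analysis was possible because each table pools the samples of its group and barcodes carry no sample, and for the same reason no replicate could be left out. No Rab gene that was called changed direction under an alternative. With TMM factors, CiMECs against BFRTV8d gave 10 higher and 2 lower Rab genes, CiMECs against GMECs 3 and 3, GMECs against BFRTV0d 7 lower, epithelial-gated against mesenchymal-gated cells of BFRTV4d 5 lower, and mesenchymal-gated cells of BFRTV4d against BFRTV0d 4 lower. With median-of-ratios factors, the lower genes were 7 in BFRTV4d against BFRTV0d, 1 in CiMECs against BFRTV8d (with 12 higher), 3 in CiMECs against GMECs (with 3 higher) and 7 in GMECs against BFRTV0d. With totals over all listed genes, CiMECs against BFRTV8d gave 1 higher and 17 lower, CiMECs against GMECs 1 and 4, and GMECs against BFRTV0d 5 and 20. With no minimum level, 9 were higher in BFRTV4d against BFRTV0d, 8 higher and 3 lower in BFRTV8d against BFRTV4d, 4 higher in CiMECs against BFRTV8d and 4 higher in CiMECs against GMECs. At 5 CPM, CiMECs against GMECs gave 1 higher, and epithelial-gated against mesenchymal-gated cells of BFRTV4d gave 7 higher. Without the 2% of barcodes with the most UMIs the latter gave 1 lower. The scalings and minimum levels move these counts by their own construction, through other totals or other genes compared, and for the top barcodes the cause was not tested.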
